A study of Mus musculus with 3 samples.

Results

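The genes described here are the protein-coding genes of the nuclear genome that encode the subunits of oxidative phosphorylation, grouped by complex. They were taken by symbol from the GENCODE mouse annotation: symbols that begin with Nduf, Uqcr, Atp5 or Cox4 to Cox8, the genes Sdha to Sdhd, Cyc1 and Cycs. The rule found 95 of the 21764 protein-coding genes, and of 50600 genes in all, in the deposited files. Of these, 36 encode subunits of complex I, 4 of complex II, 9 of complex III and 17 were placed with complex V. The group of complex IV has 20 genes, among them Ndufa4, which was first named as a complex I subunit, its relative Ndufa4l2, and Cox7a2l, a factor that joins complexes III and IV into supercomplexes. Cycs encodes the somatic cytochrome c. The symbol rule also takes in Ndufaf1 to Ndufaf8, 8 assembly factors of complex I that are not part of the finished enzyme and are kept apart below.

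In the mitochondrial inner membrane, complexes I and II pass electrons from NADH and succinate to ubiquinone, complex III passes them on to cytochrome c, and complex IV passes them to oxygen. Complexes I, III and IV pump protons, and complex V, the ATP synthase, uses the return flow to make ATP. All but complex II also hold subunits encoded in the mitochondrial genome, and several complex IV and V subunits exist as isoforms from separate genes, some of them used mainly in muscle, lung or testis. Regulatory T cells are CD4 T cells that restrain other immune cells, depend on the transcription factor Foxp3 and are known for their use of oxidative metabolism.

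RNA of mouse regulatory T cells was sequenced in 3 libraries, numbered as biological replicates 2, 3 and 4, which form a single group; no other condition was analysed here. The cells were primary cells of strain C57BL/6NJ, labelled total RNA, and the file headers add 16 h of activation. The libraries share a donor identifier, sex was not collected and age is unknown; the linked protocols refer by name to polyadenylated RNA libraries and to CD4 T cell differentiation. The libraries held 41222058, 47665060 and 99097524 fragments assigned to genes, of which the 95 genes took 1.15%, 1.22% and 1.15%. The cell type label was checked against markers: Foxp3 was at 80.9 ± 3.97 TPM, Il2ra at 658 ± 23.3 TPM and Cd4 at 591 ± 17.9 TPM (SD, n = 3 libraries). Of the 9 B cell, myeloid and erythroid markers, the highest was Cd79a at 1.12 ± 0.233 TPM, and Lyz2, Csf1r, Hbb-bs and Alas2 had no fragment. Xist, the transcript of the inactive X chromosome, stood at 126, 0.331 and 36.1 TPM in replicates 2, 3 and 4, and the Y-linked Ddx3y at 0.126, 39.3 and 28.4 TPM, so the libraries differ in sex-linked transcripts. Levels are in TPM, fragments per length of merged exons scaled to the same total in each library, so they can be compared between genes.

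Of the 95 genes, 89 (93.7%) reached 1 TPM in every library, against 45.6% of all protein-coding genes, and 62 (65.3%) reached 100 TPM in every library, against 8.8% of protein-coding genes. All genes of complexes I, II, III and V, cytochrome c and the complex I assembly factors were detected at that level. The 6 that were not are all isoforms of complex IV subunits. Together the 95 genes made up 2.18% ± 0.0624 of all TPM. Complex V had the largest part, 0.673% ± 0.0148, followed by complex I with 0.566% ± 0.0176, complex IV with 0.462% ± 0.0182, complex III with 0.325% ± 0.0103 and complex II with 0.111% ± 0.00215. The complex I assembly factors added 0.0367% ± 0.00130.

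Per gene, the complexes came in another order. The median level was 314 ± 3.46 TPM over the genes of complex III, 265 ± 2.59 TPM over those of complex II, 252 ± 9.25 TPM over the 14 detected genes of complex IV, 214 ± 17.1 TPM over complex V and 140 ± 3.77 TPM over complex I. Over all 9926 detected protein-coding genes the median was 32.2 ± 0.619 TPM. Complexes III and I kept the highest and the lowest place among the 5 complexes in each library, and the medians of complexes II and IV were 262 and 261 TPM in replicate 2. The median of the complex I assembly factors, 39.9 ± 1.36 TPM, was below that of every complex in each library. These medians depend on the gene length used. With the length of the principal transcript of each gene, the one the annotation marks as its main product, in place of all merged exons, the median moved most for complex V, which at 337 ± 11.8 TPM stood above complex III (326 ± 9.90 TPM) and complex IV (323 ± 11.3 TPM), with complex II at 283 ± 4.74 TPM and complex I at 169 ± 3.30 TPM. TPM on principal transcripts is scaled anew to the same total, so genes whose length did not change moved too. Ndufb6, with 659 bases on both lengths, came from 319 to 220 TPM.

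**Figure D1:**
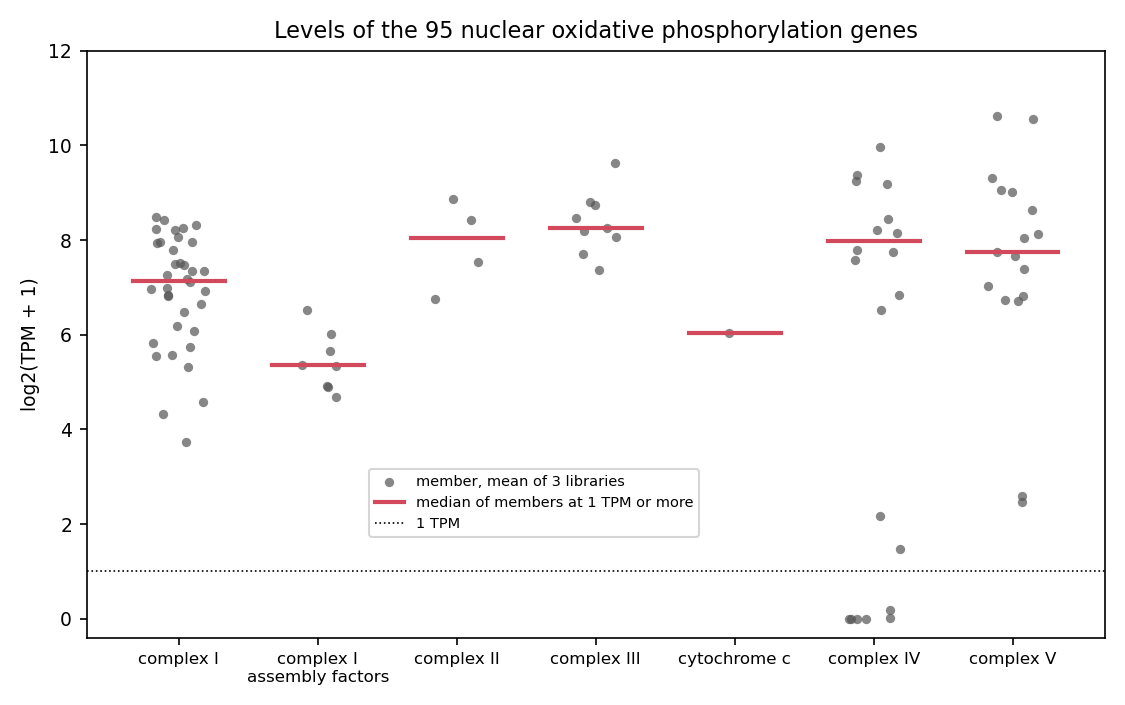
Level of each of the 95 genes as log2(TPM + 1), averaged over the 3 libraries, by complex; each point is a gene, the red line is the median of the detected genes, and the dotted line is 1 TPM. The 6 points at the bottom of complex IV are its undetected isoforms, and complex I spans 12.4 to 356 TPM.

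Complex I has a core of subunits that carry the flavin and the iron-sulfur clusters or bind ubiquinone, and a larger set of accessory subunits. The 7 nuclear core subunits had a median of 154 ± 12.6 TPM and the 29 accessory subunits one of 137 ± 6.86 TPM. Among the core subunits, Ndufs8, which holds iron-sulfur clusters on the way to ubiquinone, had 294, 315 and 301 TPM in replicates 2, 3 and 4. Ndufv1, which binds NADH and the flavin, had 165, 183 and 184 TPM, Ndufs7, which holds the cluster that hands electrons to ubiquinone, had 139, 161 and 161 TPM, and Ndufv2, an iron-sulfur protein beside Ndufv1, had 135, 126 and 119 TPM. On merged exons these genes were in descending order. Ndufs3, which links the iron-sulfur arm to the ubiquinone site, had 91.5, 91.4 and 81.9 TPM, with 35.8% of its 50-base windows also found in other genes, and Ndufs1, the largest iron-sulfur subunit, was the lowest of these with 57.6, 55.2 and 53.7 TPM. The ranges of the core genes named here did not overlap, and the gap between Ndufs8 and Ndufs1 far exceeded the spread between libraries. On principal transcript length this order changed: Ndufs8 came to 201 TPM, Ndufv1 to 186, Ndufs7 to 185, Ndufs3 to 127, Ndufs1 to 116 and Ndufv2 to 103 TPM.

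The accessory subunits of complex I covered a 28.7-fold range. The 3 highest genes of the complex on merged exons were Ndufa2 with 331, 376 and 362 TPM, Ndufb9 with 330, 365 and 335 TPM, and Ndufb6 with 322, 323 and 312 TPM, the last 2 of them subunits of the membrane arm. Ndufa2 and Ndufb9 overlapped in range, and Ndufb6 was below both in each library. The lowest were Ndufab1, the mitochondrial acyl carrier protein, with 22.8, 23.8 and 21.8 TPM, and the membrane arm subunits Ndufb2 with 18.9, 19.4 and 18.8 TPM and Ndufb4 with 14.0, 10.9 and 12.4 TPM. These 3 stood apart from each other in every library, and the other 23 accessory subunits averaged between 38.8 TPM (Ndufs5) and 301 TPM (Ndufc2). Ndufb4 lies at chr16:37647170-37654453 on the minus strand and shares 37.0% of its windows with processed pseudogenes elsewhere, so fragments that fit several places could be missing from its 200, 182 and 423 counts. Ndufb2 shares only 0.0694% of its windows. The assembly factors ran from Ndufaf3, with 22.0, 22.1 and 29.6 TPM, to Ndufaf8, with 76.8, 93.3 and 105 TPM. Ndufaf2 had 63.3 ± 1.79 TPM, Ndufaf4 49.3 ± 3.24, Ndufaf7 40.1 ± 0.127, Ndufaf1 39.7 ± 2.66, Ndufaf5 29.4 ± 2.02 and Ndufaf6 28.9 ± 1.99 TPM. None of the 8 reached the complex I median.

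Complex II, which is also the succinate dehydrogenase of the citric acid cycle, has only nuclear subunits. The flavoprotein Sdha had 346, 342 and 347 TPM and the iron-sulfur protein Sdhb 178, 192 and 184 TPM. The membrane anchors differed more: Sdhd had 472, 488 and 447 TPM and Sdhc 110, 105 and 107 TPM, a ratio of 4.38 ± 0.243 that was 4.28 ± 0.237 on principal transcript length. None of the 4 shares more than 0.0961% of its windows with another gene.

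In complex III the 2 subunits that carry electrons through the complex beside cytochrome b had these levels: cytochrome c1, encoded by Cyc1, had 735, 850 and 801 TPM, and the Rieske iron-sulfur protein, encoded by Uqcrfs1, had 424, 450 and 406 TPM. Cyc1 was the highest gene of the complex in every library, also against Uqcr10, a small subunit with 450, 458 and 430 TPM. On principal transcript length, which for Cyc1 is longer than its exons in the deposited annotation, Cyc1 came to 431 TPM and Uqcrfs1 to 295 TPM, below Uqcrh, the hinge protein, at 477 TPM and Uqcrc1 at 460 TPM, so the order within the complex depends on the length. The core proteins, which form the matrix side of the complex, had 351 ± 10.6 TPM (Uqcrc2) and 266 ± 15.4 TPM (Uqcrc1), with Uqcrc2 above Uqcrc1 by a ratio of 1.32 ± 0.113 on merged exons and below it, at 0.712 ± 0.0609, on principal transcripts. The lowest on merged exons were Uqcrc1 and the small subunits Uqcrq, with 203, 208 and 214 TPM, and Uqcrb, with 183, 152 and 154 TPM; Uqcrb shares 43.2% of its windows with other genes. Cytochrome c, the carrier between complexes III and IV, stood lower than every subunit of complex III, with Cycs at 63.1, 65.1 and 64.7 TPM; 28.5% of its windows are found elsewhere.

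Levels in complex IV covered a 569-fold range among its detected genes (354-fold on principal transcripts). The 4 highest genes on merged exons were Cox8a with 928, 1090 and 992 TPM, Cox6b1 with 658, 684 and 648 TPM, Cox6a1 with 571, 647 and 605 TPM, and Cox4i1 with 552, 624 and 575 TPM. Cox8a, a small structural subunit, was the highest in each library on that length, while on principal transcripts Cox4i1 stood at 817 ± 50.3 TPM and Cox8a at 687 ± 54.9 TPM. The lengths of Cox8a are nearly equal (545 and 550 bases), so its fall is mostly the new scaling. Its ratio of 0.684 is close to the 0.691 of Ndufb6, whose lengths are equal. All 4 are the widely used forms of subunits that also have tissue forms. Cox7a2 had 348 ± 16.4 TPM, Cox7b 295 ± 12.5 TPM and Ndufa4 285 ± 23.0 TPM. Cox5a and Cox5b, which have no isoform, had 219, 227 and 214 TPM and 216, 207 and 217 TPM, a ratio of 1.03 ± 0.0601, so they did not differ beyond their spread; on principal transcripts the ratio was 1.88 ± 0.109. The supercomplex factor Cox7a2l, a relative of Cox7a2, had 191 ± 7.95 TPM and was lower than Cox7a2 in 3 of 3 libraries (Cox7a2 over Cox7a2l 0.87 ± 0.04 on the log2(TPM + 1) scale). Cox7c had 114 ± 7.21 TPM and Cox6c 90.4 ± 4.34 TPM (165 and 302 TPM on principal transcripts).

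In complex IV the 11 widely used forms summed to 4424 ± 176 TPM and the 8 tissue isoforms to 5.41 ± 1.15 TPM. Cox7a1, the form of heart and skeletal muscle, was counted with 19, 34 and 49 fragments in replicates 2 to 4, equal to 2.91, 4.43 and 3.13 TPM. Cox6b2, the testis form, had 26, 30 and 48 fragments, or 1.92, 1.89 and 1.48 TPM. Cox6a2, of heart and skeletal muscle, had 4 fragments in replicate 3 and none in the others, and Cox4i2, of lung, had 1 fragment in replicate 4. No fragment was counted for Cox7b2 and Cox8c, of testis, for Cox8b, of heart, muscle and brown fat in the mouse, or for Ndufa4l2, a gene induced by low oxygen. A total of 3 fragments over the libraries would have been 0.149 TPM for Cox8b, 0.113 for Cox8c, 0.0993 for Cox7b2 and 0.0491 TPM for Ndufa4l2, which is the limit of what was detectable here, for counting error only. Markers of muscle, testis and brown fat were low on merged exons, and none of lung was looked at. Of 6 muscle markers 1 was detected, Tnnt2 at 4.34 ± 0.446 TPM, which came to 19.4 TPM on principal transcript length. The sum of the 6 on merged exons ran from 4.50 to 5.01 TPM over the libraries. Acta1 was at 0.360 ± 0.243 TPM, Ckm had 1 fragment in all and Myh4, Myh7 and Mb had none. Of 3 testis markers and 2 of brown fat none was detected, with a testis sum of 0 to 0.0780 TPM and no fragment for Prm1, Tnp1, Ucp1 or Cidea. In bulk RNA, a few cells of another type and a low level in every cell cannot be told apart. The part of such cells in the Cox7a1 and Cox6b2 levels was not tested.

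Paired with its tissue form, each widely used form was higher in 3 of 3 libraries. Cox7a2 exceeded Cox7a1 101-fold in TPM over the pooled fragments (95% interval 83.1 to 124), and Cox6b1 exceeded Cox6b2 392-fold (323 to 480). Cox6a1 exceeded Cox6a2 5770-fold (2253 to 21176), on 4 fragments of Cox6a2, and Cox4i1 exceeded Cox4i2 25595-fold (4594 to 1010960), on 1 fragment of Cox4i2. Against the isoforms with no fragment the difference was at least 8877-fold for Cox8a over Cox8c, 6713-fold for Cox8a over Cox8b, 5689-fold for Ndufa4 over Ndufa4l2 and 2934-fold for Cox7b over Cox7b2, with the floor of 3 fragments over the libraries together. On principal transcript length the folds were 106 for Cox7a2 over Cox7a1, 237 for Cox6b1 over Cox6b2, 7094 for Cox6a1 over Cox6a2 and 48240 for Cox4i1 over Cox4i2, and the bounds were 8463, 6652, 10986 and 3558 for the pairs with Cox8c, Cox8b, Ndufa4l2 and Cox7b2. On the scale of log2(TPM + 1), which understates such differences, the ratios ran from 6.29 ± 0.20 for Cox7a2 over Cox7a1 to 9.97 ± 0.12 for Cox8a over Cox8b. The exact two-sided sign-flip permutation test gave p = 0.25 for each, the smallest value that 3 libraries allow, and 0.273 after Benjamini-Hochberg adjustment over 12 pairs, so no pair could pass a threshold of 0.05.

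**Figure D2:**
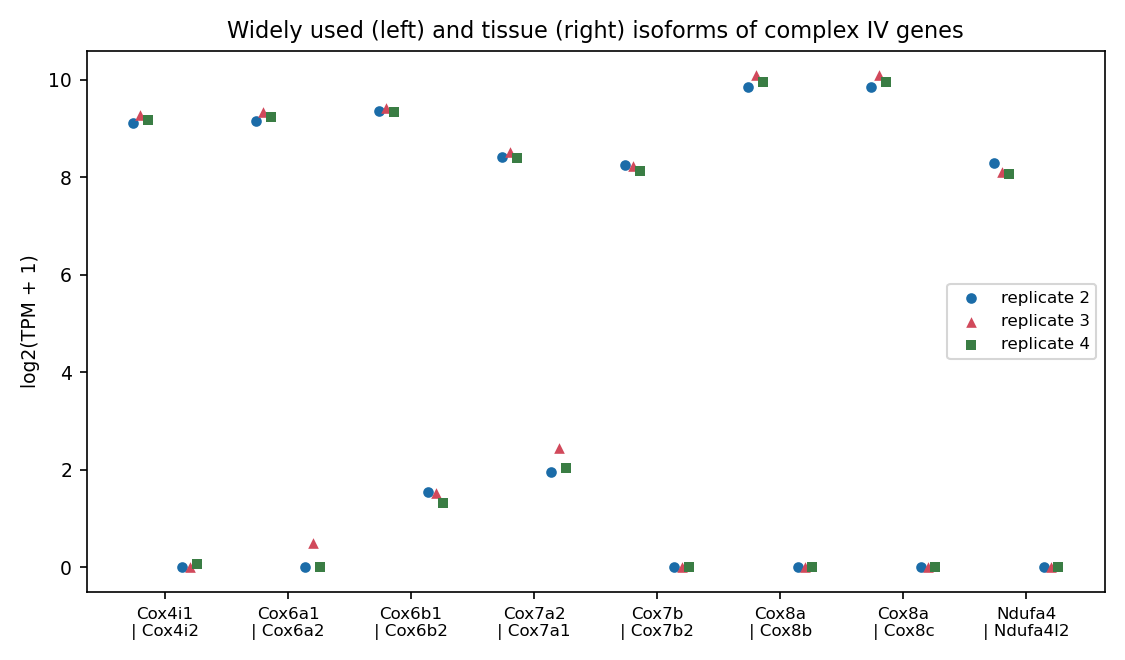
Level of each widely used form and, right of it, its tissue form in complex IV as log2(TPM + 1), with 1 point per library. All widely used forms sit above 8, Cox7a1 and Cox6b2 between 1 and 3, and the others at or close to 0.

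Complex V held the highest genes of all 95. The beta subunit gene Atp5b, at chr10:128083273-128090391 on the plus strand, had 1535, 1606 and 1551 TPM, and the alpha subunit gene Atp5a1 had 1466, 1539 and 1506 TPM; both lie at the 99.4th percentile of detected protein-coding genes. Alpha and beta alternate in the catalytic head, which holds several copies of each around 1 central stalk. The ratio of Atp5b to Atp5a1 was 1.05, 1.04 and 1.03 in replicates 2, 3 and 4, and 1.81 ± 0.0160 on principal transcript length. Over Atp5c1, the gamma subunit of the central stalk with 424, 396 and 365 TPM, Atp5a1 stood 3.82 ± 0.342 times higher and Atp5b 3.97 ± 0.325 times (2.96 ± 0.265 and 5.37 ± 0.439 on principal transcripts). The other central stalk genes, Atp5d for the delta and Atp5e for the epsilon subunit, had 632 ± 49.8 and 264 ± 11.7 TPM. On principal transcripts their order turned round, with Atp5d at 597 TPM and Atp5e at 760 TPM. The 4 genes of the peripheral stalk, which holds the catalytic head still, averaged between 130 and 213 TPM, with Atp5h (subunit d) at 213 ± 18.2 TPM, Atp5o (the oligomycin sensitivity protein) at 202 ± 2.26 TPM, Atp5f1 (subunit b) at 167 ± 1.51 TPM and Atp5j (coupling factor 6) at 130 ± 5.60 TPM. This order also changed on principal transcripts, with Atp5o at 377 TPM, Atp5j at 347, Atp5h at 317 and Atp5f1 at 296 TPM.

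The proton-carrying c ring is built from 1 mature peptide that 3 genes encode. Atp5g3 had 530, 528 and 500 TPM, Atp5g1 had 103, 125 and 108 TPM, and Atp5g2 had 98.9, 105 and 114 TPM. Atp5g3 thus made up 70.4% ± 1.71 of the 738 ± 17.9 TPM of the family, with 15.2% ± 1.23 from Atp5g1 and 14.4% ± 1.25 from Atp5g2. Atp5g3 was higher than each of the others in 3 of 3 libraries, by 2.20 ± 0.14 and 2.29 ± 0.15 on the log2(TPM + 1) scale (exact permutation p = 0.25 each, adjusted 0.273). Atp5g1 and Atp5g2 did not differ beyond their spread (0.08 ± 0.17, higher in 2 of 3 libraries, exact permutation p = 0.75), and their order turned round on principal transcript length, where the shares were 81.3% for Atp5g3, 6.07% for Atp5g1 and 12.6% for Atp5g2. Of the windows of Atp5g2, 87.4% are also found elsewhere, so its level is uncertain.

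Among the small membrane subunits of complex V, Atp5mpl had 550, 536 and 512 TPM, Atp5k 260, 297 and 282 TPM, Atp5j2 101, 108 and 101 TPM, and Atp5l, the g subunit, only 4.60, 4.43 and 4.52 TPM. Atp5l, at chr9:44912557-44920742 on the minus strand, is the gene whose value depends most on the processing: its merged exons are 6443 bases long against 544 bases for its principal transcript, on which it came to 37.0 ± 0.774 TPM, and 68.5% of its windows are found elsewhere. It was counted at 362, 409 and 852 fragments, against 55, 77 and 140 for Gm10221, a processed pseudogene that shares sequence with it. The other low gene placed with complex V, Atp5s, now named Dmac2l, is not a regular subunit of the enzyme and had 4.91, 3.85 and 6.24 TPM.

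**Figure D3:**
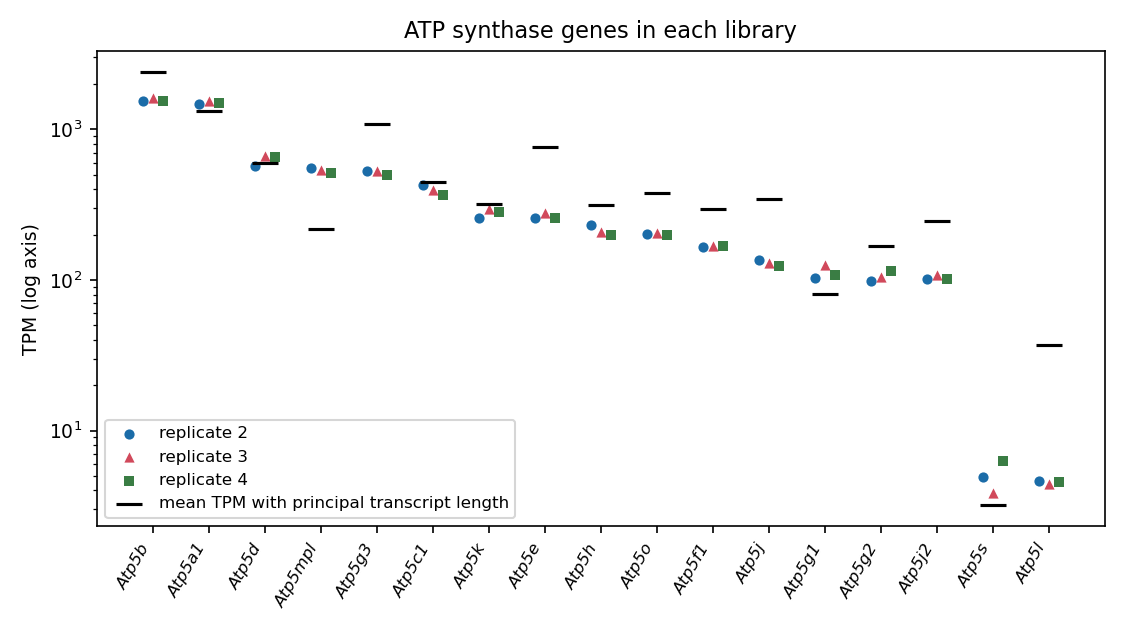
TPM of the 17 complex V genes in each library on a log axis, ordered by mean, with a black bar at the mean obtained with the principal transcript length. Atp5b and Atp5a1 lead in every library, and the bar lies far above the points for Atp5l, Atp5e and Atp5j.

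The choice of length bore on single genes and also on groups, as in the median of complex V, 214 TPM on merged exons and 337 TPM on principal transcripts. Over the 89 detected genes the mean levels on merged exons and on principal transcripts correlated with r = 0.91 on the log2 scale and rho = 0.82 (a description across genes that share the same fragments in both values). For 13 genes the principal length gave at least a 2-fold higher value and for 1, Atp5mpl, at least a 2-fold lower one. Part of each change is the new scaling to the same total, as Ndufb6, with equal lengths, came to 0.691 of its merged value. Atp5mpl, with 365 merged and 612 principal bases, fell by both its length and this scaling. The largest changes, picked out after the values were seen, were those of Atp5l (8.18-fold), Ndufb7 (5.01-fold), Ndufa11 (3.37-fold), Cox6c (3.34-fold) and Ndufb5 and Ndufb8 (3.20-fold each). Ndufb7, at 71.8 ± 7.46 TPM on merged exons, stood at 360 ± 36.9 TPM on its principal transcript, the highest of complex I on that length. Of all 95 genes, 57 share no 50-base window with a gene elsewhere in the genome, 26 share under 20% and 12 share 20% or more. The last are Atp5g2, Atp5l, Cox7c, Atp5h, Uqcrb, Ndufb4, Ndufs3, Ndufs5, Cycs, Ndufa12, Cox5b and Atp5f1. Windows shared with an overlapping gene on the same strand are not in these numbers. They made up 24.6% for Atp5o and 23.4% for Ndufb9, and their effect on the counts was not tested.

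**Figure D4:**
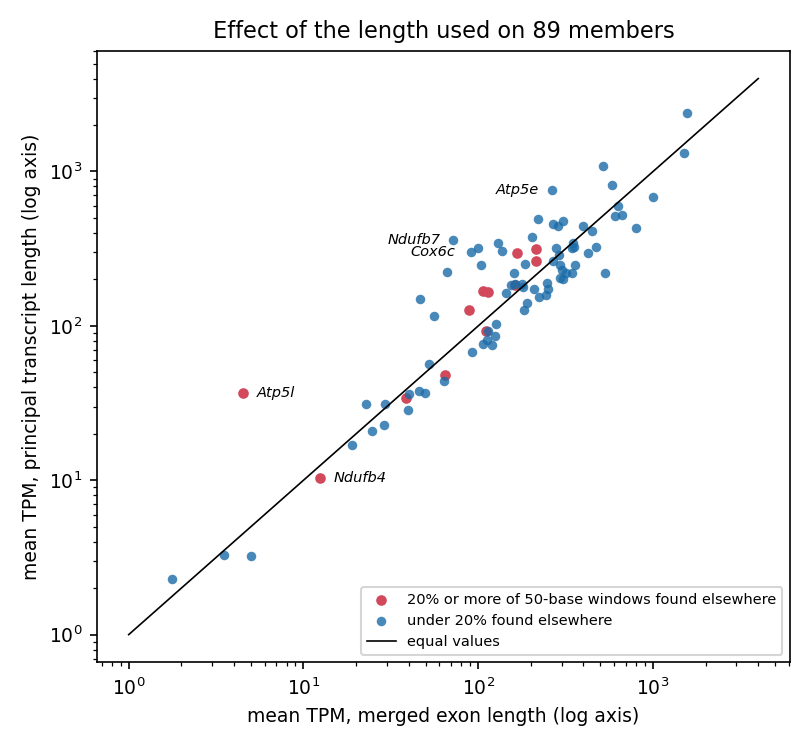
Mean TPM of the 89 detected genes on the merged exon length (x) and on the principal transcript length (y), both on log axes, with red for genes that have 20% or more of their windows elsewhere. Most points lie within 2-fold of the line of equal values, and Atp5l, at 4.52 and 37.0 TPM, lies farthest above it.

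The libraries were then compared gene by gene with a chi-square test of equal rates, which covers counting error only. Calls needed both a Benjamini-Hochberg adjusted p under 0.05, over all genes, and a CPM at least 2 times higher in the highest library than in the lowest. None of the 89 genes tested was called, against 10.9% of the 13688 genes tested in all and 0.635% of the 9926 detected protein-coding genes. The same count of 0 was obtained with DESeq2 size factors and with library totals; 71 of the 89 had an unadjusted p under 0.05. Without the ratio, 70 of the 89 (78.7%) passed the adjusted threshold, against 70.8% of all genes and 77.1% of the detected protein-coding genes. At a ratio of 1.5 only Atp5s was called, with a ratio of 1.58 and an adjusted p of 0.00129 by the chi-square test, on 89, 82 and 271 fragments, against 16.1% of all genes. The next ratio was that of Cox7a1, 1.55, with an adjusted p of 0.204.

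The coefficient of variation between libraries had a median of 5.21% over the 85 genes at a mean of 10 TPM or more and of 6.18% over the 7741 protein-coding genes at that level. By complex the medians over detected genes were 5.78% for complex I, 3.07% for complex II, 5.18% for complex III, 5.52% for complex IV, 4.32% for complex V and 6.79% for the assembly factors. The most even genes were Ndufaf7, Sdha (0.660%), Ndufb8 and Atp5f1, and the least even among those over 10 TPM were Ndufaf3 (17.7%), Ndufaf8 (15.4%) and Uqcr11 (13.7%). Ndufaf3 and Ndufaf8 were highest in replicate 4, by ratios of 1.34 and 1.36. The X-linked genes Ndufa1, Ndufb11 and Cox7b had ratios of 1.05, 1.10 and 1.10, small beside the differences in Xist given above.

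The small differences had a direction. Replicate 3 was the highest library for 45 of the 89 genes and the lowest for 11. Replicate 2 was the highest for 29 and the lowest for 38, and replicate 4 was the highest for 15 and the lowest for 40. The median log2 CPM difference of replicate 3 from the other libraries was 0.08 over the 89 genes and -0.00398 over all detected protein-coding genes, and it was above 0 in 29 of 36 genes of complex I, 3 of 4 of complex II, 8 of 9 of complex III, 12 of 14 of complex IV and 14 of 17 of complex V. Such counts by gene were not taken over all detected protein-coding genes, so how unusual they are was not tested. The differences between libraries moved with base composition. Across the 89 genes the difference of replicate 2 from the others correlated with the GC content of the principal transcript at r = -0.57, that of replicate 3 at 0.45 and that of replicate 4 at 0.24, and across the 9925 detected protein-coding genes with a GC value at -0.63, 0.35 and 0.39. The median GC content was nearly the same in both sets, 50.5% over the 89 genes and 50.3% over the 9925. The points of each correlation come from the same libraries, and the part of GC content in the differences was not tested further.

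**Figure D5:**
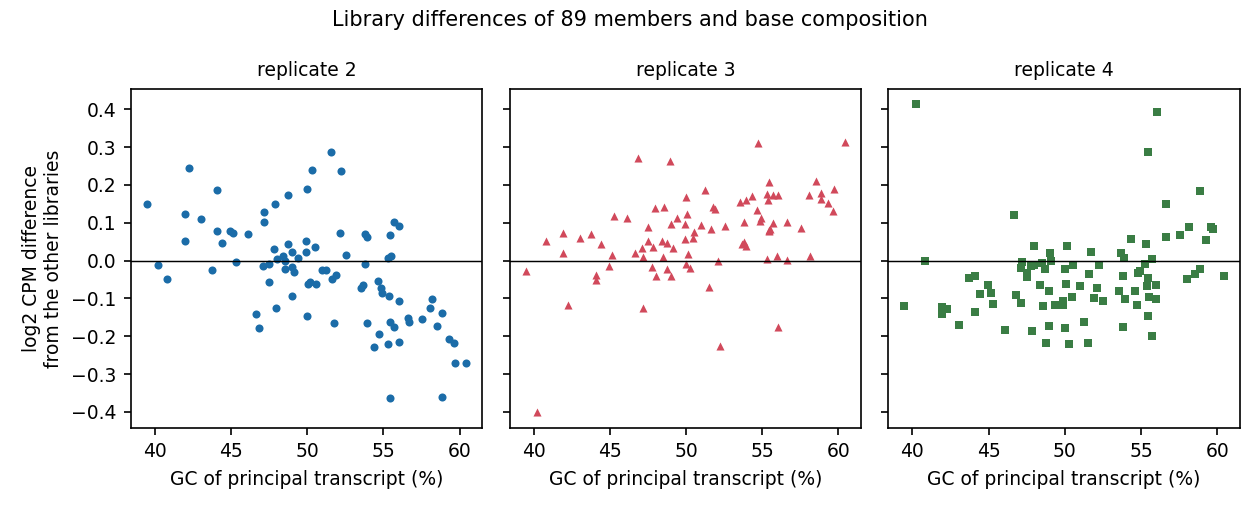
Difference of each library from the mean of the others in log2 CPM (y) against the GC content of the principal transcript in percent (x) for the 89 detected genes, with a panel per library. The points of replicate 2 fall with GC content, and most points of replicate 3 lie above 0.

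The promoters of the genes were looked at for short motifs known from this pathway. They were the palindrome bound by NRF1, a regulator of many respiratory genes, the motif CCGGAAGT of the ETS factor GABP, also called NRF2, and the YY1 motif found near transcript starts. RefSeq promoters of build GRCm38.p6, 250 bases before the transcript start to 50 after it, were given for 77 of the 95 genes. The 5 upstream sequences below, 5′ to 3′ on the strand of the gene with motif letters in capitals, show the NRF1 palindrome in full (Ndufaf4), its relaxed form, in which the base after the first A may be any (Ndufs5), the GABP motif (Uqcr11), and, for the subunit 8 isoforms, a gene at 1003 TPM beside one with no fragment (Cox8a and Cox8b). They lie at chr4:24897833-24898082 (plus strand), chr4:123718187-123718436 (minus strand), chr10:80406822-80407071 (minus strand), chr19:7217617-7217866 (minus strand) and chr7:140900447-140900696 (minus strand).
Ndufaf4: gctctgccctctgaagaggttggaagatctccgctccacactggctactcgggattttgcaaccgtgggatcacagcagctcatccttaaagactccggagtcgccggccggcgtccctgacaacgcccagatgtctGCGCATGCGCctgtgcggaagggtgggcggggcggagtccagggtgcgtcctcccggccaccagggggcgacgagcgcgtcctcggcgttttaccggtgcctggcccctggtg
Ndufs5: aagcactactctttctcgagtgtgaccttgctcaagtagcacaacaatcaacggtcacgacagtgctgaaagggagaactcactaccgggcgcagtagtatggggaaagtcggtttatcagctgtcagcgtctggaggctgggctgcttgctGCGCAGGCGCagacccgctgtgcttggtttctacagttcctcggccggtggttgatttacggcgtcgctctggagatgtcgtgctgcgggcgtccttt
Uqcr11: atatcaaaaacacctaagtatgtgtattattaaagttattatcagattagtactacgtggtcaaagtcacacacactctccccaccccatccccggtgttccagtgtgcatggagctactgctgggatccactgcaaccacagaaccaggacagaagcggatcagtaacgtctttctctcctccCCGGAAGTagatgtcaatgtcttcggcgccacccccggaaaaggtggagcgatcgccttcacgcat
Cox8a: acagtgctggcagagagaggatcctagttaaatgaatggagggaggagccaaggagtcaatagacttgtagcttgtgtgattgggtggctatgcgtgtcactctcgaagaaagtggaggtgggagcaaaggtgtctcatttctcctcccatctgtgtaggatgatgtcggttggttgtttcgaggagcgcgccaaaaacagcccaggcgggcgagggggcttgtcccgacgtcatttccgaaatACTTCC
Cox8b: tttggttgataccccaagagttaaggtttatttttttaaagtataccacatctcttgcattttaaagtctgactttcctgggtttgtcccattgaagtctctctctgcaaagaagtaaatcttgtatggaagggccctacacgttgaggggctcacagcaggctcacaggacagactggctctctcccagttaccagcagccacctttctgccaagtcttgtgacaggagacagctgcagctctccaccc

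The Ndufaf4 motif starts 113 bases before the transcript start, that of Ndufs5 98 bases and that of Uqcr11 66 bases. The Cox8a promoter holds the GABP motif at 2 places, 1 of them 31 bases past the transcript start and not shown. The other lies on the opposite strand, starts 6 bases before the transcript start and runs past it, so that only its first 6 letters are in the sequence shown. The Cox8a and Cox8b promoters held 19 and 2 CG dinucleotides in 300 bases. Other pairs differed: Cox6b1 and Cox6b2 held 17 and 10, and Cox7a2 and Cox7a1 held 20 and 7. Cox7b held 5, fewer than the 10 of Cox7b2, which had no fragment. None of the motifs was found for the widely used forms Cox6b1, Cox7a2, Cox7b and Ndufa4. Searched on both strands, the relaxed NRF1 form, which includes every full palindrome, was found in the promoters of 19 of 77 genes (24.7%), against 5.19% of all 27025 genes with promoters of that length and 13.2% of the 8079 detected protein-coding ones; a gene with several promoters counts if any of them matches. The full palindrome was in 9.09%, against 1.07% and 2.69%. The YY1 motif was in 7.79%, against 0.995% and 2.87%, and CCGGAAGT in 6.49%, against 4.31% and 10.8%. By complex, the relaxed NRF1 form was found for 7 of 32 genes of complex I, 2 of 3 of complex II, 1 of 5 of complex III, 1 of 14 of complex IV and 6 of 15 of complex V. The detected genes with it had a median of 243 TPM and those without it one of 149 TPM, with overlapping ranges (12.4 to 608 TPM and 1.76 to 1564 TPM). For the full palindrome the order was the reverse, with 106 TPM for the 7 genes with it and 165 TPM without it. The medians with and without were 142 and 167 TPM for the YY1 motif (6 genes with it). For CCGGAAGT (5 genes with it) they were 291 and 157 TPM, so the direction depends on the motif. A match is only a match of letters in the window. Taking for each gene the promoter richest in CG dinucleotides, the median number was 20 over the 77 genes, 8 over all genes with a promoter and 23 over the detected protein-coding ones.

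Of the 95 genes, 23 (24.2%) have the start of a gene on the opposite strand within 1000 bases, pointing away, against 6.79% of all protein-coding genes and 11.8% of the detected ones. Partner levels ranged from no fragment to 310 TPM. Ndufa7, at 137 ± 11.8 TPM, lies 10 bases from Rps28, at 310 ± 15.5 TPM, and Sdhd, at 469 ± 20.4 TPM, 98 bases from Timm8b, at 193 ± 6.40 TPM. Ndufa8, at 294 ± 25.9 TPM, and Ndufa5, at 114 ± 12.4 TPM, have as partners Morn5 and Asb15, for which no fragment was counted.

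Other genes that build or regulate the chain were taken from lists. Of 37 further assembly factors, 36 were detected, against 45.6% of all protein-coding genes. By the chi-square test 0 were called between libraries, against 0.635% of the detected protein-coding genes. The median of the 37 was 35.3 TPM, close to that of the Ndufaf genes. The highest were Uqcc2 (209 ± 1.87 TPM) for complex III, and Coa3 (154 ± 5.28 TPM), Coa5 (123 ± 13.2 TPM) and Cox14 (122 ± 8.37 TPM) for complex IV; Pet117 had no fragment. Of 10 transcription regulators, 9 were detected and none was called, against the same shares of protein-coding genes. Pprc1, a coactivator related to PGC-1, had 190 ± 13.0 TPM, Yy1 132 ± 13.9 TPM, the GABP alpha subunit gene Gabpa 56.1 ± 5.92 TPM, Esrra 43.6 ± 3.36 TPM and Nrf1 24.3 ± 0.916 TPM. On principal transcript length Yy1 came to 42.8 TPM, Gabpa to 44.2, Esrra to 34.1 and Nrf1 to 91.9 TPM, so their order depends on the length. Ppargc1a, the coactivator PGC-1alpha of muscle and brown fat, had 3 fragments in replicate 2 and none in the others, while its relative Ppargc1b had 14.3 ± 1.59 TPM. Among inhibitors and uncouplers, Ucp2 had 232 ± 9.35 TPM, Higd2a, a complex IV factor, 154 ± 13.1 TPM, and Atpif1, the inhibitor of the ATP synthase, 38.7 ± 5.12 TPM; Ucp1, the uncoupler of brown fat, had no fragment.

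Beside the subunits from the mitochondrial genome, the nuclear subunits of complex I summed to 5660 ± 176 TPM, against 8039 ± 999 TPM for the 7 mitochondrial ones, of which mt-Nd4l had no fragment and mt-Nd3 19, 12 and 31. The ratio was 0.714 ± 0.116 on merged exons and 1.05 ± 0.169 on principal transcripts, so its direction depends on the length. In complex III the nuclear sum was 1.43 ± 0.255 times the level of mt-Cytb, and 1.94 ± 0.334 times on principal transcripts. Of the mitochondrial subunit genes of complexes IV and V, only mt-Co1 was counted in quantity, so no ratio is given for them. mt-Co2 had 6 fragments in replicate 3, mt-Co3 9 and mt-Atp6 1 in replicate 4, and mt-Atp8 none. Whether fragments that fit several places were lost from mitochondrial genes was not tested. If so, the mitochondrial sums are too low, also that of complex I.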

How the data were processed

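Per the file headers, the authors counted fragments per gene with featureCounts 1.4.6-p4 (paired-end, both ends aligned, strand option 2, exons of GENCODE M13), and the deposited counts, with merged exon lengths, are raw and not normalized. The build is mm10 per the labels; the sources used here do not give the alignment settings. By the program's defaults, fragments that fit several places are left out, so genes with copies elsewhere can be undercounted.

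The p-values measure only counting error or the spread between libraries, and separate animals are not stated in the labels. Errors are SDs over the 3 libraries, and intervals and floors cover counting error only, as no molecular identifiers were used. Members, pairs and lists were chosen with earlier results of these data known.

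Symbols and biotypes came from GENCODE M21, by identifier. In that release 96 identifiers meet the rule, of which 1, a second Atp5o entry, was not used here. TPM was computed as count over merged exon length. Library effective sizes came from edgeR 4.0.16 (TMM), and genes with a summed count of 30 or more were compared between libraries by a chi-square test with 2 degrees of freedom; with 1 group, edgeR's quasi-likelihood test has no contrast. The test was checked on data simulated with counting error only, so the check does not cover further spread between libraries. Isoform pairs were compared by an exact sign-flip permutation test of log2((TPM + 1)/(TPM + 1)), and the 95% intervals of their folds are exact Poisson ones on the fragments of the second gene, pooled over libraries. Shared windows are 50-base stretches of a gene's principal transcript found in transcripts of a gene elsewhere. Exons outside the principal transcript are counted but were not searched for shared windows. Detection means 1 TPM or more in every library, and medians by complex are over detected genes.

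The text names the 3 highest and the 3 lowest detected genes of each complex, all undetected ones, those called between libraries, the pairs, the catalytic or cofactor-binding subunits and the Ndufaf genes. Genes named for length, copies, promoters, neighbours or spread were chosen after their values were seen. Alternatives were DESeq2 1.42.0 size factors, library totals, other filters, ratios, pseudocounts and TPM denominators, CPM, each library left out, and the longest transcript; the principal (APPRIS) length, members without copies and Ndufa4 placed with complex I were added after seeing the data. The comparison of isoform proteins was not run, and some values that the naming rule covers are not reported here. Promoter sequences are those of RefSeq.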

Additional observations from a re-analysis of the deposited data

How the results depend on the processing

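No paired analysis was possible because the libraries form 1 group. With any 1 library left out, the count of detected genes stayed at 89 and that of called members at 0 (5.85%, 3.90% and 4.28% of all genes were called without replicates 2, 3 and 4), the medians and shares of TPM by complex moved by less than 1 SD, and the number of pairs with the first gene higher in every library was 11 to 12. Without the low-count filter 1 of 91 members was called (Cox6a2), against 13.8% of 20470 genes, at a ratio of 1.5 again 1 (Atp5s), against 16.1%, and with no ratio 70, against 70.8%. Over the nuclear protein-coding genes alone, the medians were 149.5 TPM for complex I, 42.5 for its assembly factors, 282 for complex II, 334 for complex III and 268 for complex IV. With the longest coding transcript they were 159.5, 30.8, 295, 341 and 337 TPM, and 324 for complex V; with the principal transcript they were 169, 33.5, 283, 326, 323 and 337 TPM. Without genes that have copies elsewhere they were 156 for complex I, 332 for complex III, 290.04 TPM for complex IV and 279.7 for complex V. The complex IV median was 152 TPM with undetected isoforms kept and 221 TPM with Ndufa4 moved to complex I. On principal length the shares of TPM were 0.02875% for the assembly factors, 0.0969% for complex II, 0.305% for complex III, 0.495% for complex IV and 0.901% for complex V. Of 72 alternative pair ratios 70 kept their direction; Atp5g1 over Atp5g2 ran from -0.0064 to 0.16 with 1 library left out (lowest without replicate 3) and was -1.04 on principal length. Against detected genes in place of all promoters, the background of the motifs was 2.69% for the full NRF1 palindrome, 13.2% for its relaxed form, 10.8% for CCGGAAGT and 2.87% for the YY1 motif. The cause of these changes was not tested beyond their construction. Depth limits the undetected isoforms, each with 4 fragments or fewer.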
